A study of Drosophila melanogaster with 18 samples.

Results

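The vacuolar H+ ATPase genes described here are the 33 genes, of 16727 counted per library, whose symbol starts with Vha. Membership was set by symbol alone, but the Vha genes were chosen with earlier results of these data known. By subunit, 13 code for parts of V1 and 20 for parts of V0 or its accessory proteins, and together they cover 15 subunits. The 33 genes were divided by their mean level in WT into 18 broad genes, at 10 or more CPM, and 15 restricted genes below that level. CPM are the counts of a gene scaled by library total and by edgeR's TMM factor for that library. VhaM9.7-c, at 10.9 CPM in WT, was the broad gene closest to this limit, and VhaPPA1-2, at 0.238 CPM, was the restricted gene closest to it. Only 23 of the 33 genes reached 10 counts over all libraries and were tested: the 18 broad genes and 5 restricted ones (Vha36-2, Vha36-3, Vha68-3, Vha100-4 and VhaPPA1-2).

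The V-ATPase is a rotary proton pump. Its peripheral V1 sector hydrolyses ATP on alternating A and B subunits, and a stalk built from D and F subunits carries the rotation to a ring of c subunits in the membrane-embedded V0 sector, where protons pass between the ring and the a subunit. The pump acidifies lysosomes, endosomes and secretory vesicles, and in the nervous system it also loads synaptic vesicles. In Drosophila several subunits are made by families of paralogs, of which 1 is usually expressed in most tissues and others mainly in the testis or single organs.

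The measurements come from 12 RNA-seq libraries of BG3 cells, a line from the larval central nervous system of Drosophila melanogaster. There were 3 libraries each of BEAF-32 RNAi cells, Cp190 RNAi Chro RNAi cells, BEAF-32 RNAi Dref RNAi cells and WT cells. Cells were knocked down with 50 µg of double-stranded RNA for 72 h, and no control double-stranded RNA is described for WT. BEAF-32 and Dref bind DNA at related motifs, Cp190 and Chro are partners of such proteins at borders of topologically associating domains (TADs), and Hi-C lists of TADs and loops were also used, 1 of each per knockdown. The study calls its Hi-C replicates biological, and no source used here says whether the RNA-seq replicates were separate cultures, so the spread behind each p-value is that between libraries and could be technical only. In such bulk samples, fewer cells of a type and less RNA per cell cannot be told apart.

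Gene counts per library ranged between 7178403 and 12202598, and BEAF-32 RNAi replicate 3 had the lowest depth and stood apart from its group. Its counts differed from those of the other 2 BEAF-32 RNAi replicates by a chi-square of 97.6 and 101 per degree of freedom over genes, against 2.17 to 6.81 for the other pairs of replicates. It was the lowest of the 12 libraries for 13 of the 18 broad Vha genes and the highest for 2. Calls are therefore given with and without it, also where it enters a comparison only through the shared estimate of the spread. The log2 fold changes of the knocked-down genes against WT were -0.77 for BEAF-32 in BEAF-32 RNAi cells, -0.54 for Cp190 and -0.75 for Chro in Cp190 RNAi Chro RNAi cells, and -0.72 for BEAF-32 and -0.67 for Dref in BEAF-32 RNAi Dref RNAi cells. They were also lower where they were not targeted: all 4 passed the test in BEAF-32 RNAi cells and in BEAF-32 RNAi Dref RNAi cells, and Cp190, Chro and Dref did so in Cp190 RNAi Chro RNAi cells. Without BEAF-32 RNAi replicate 3 all 4 were called lower in each knockdown, BEAF-32 in Cp190 RNAi Chro RNAi cells included.

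The promoter sequences below are shown because BEAF-32 is known to bind CGATA and Dref the element TATCGATA, called the DRE, which itself holds CGATA on both strands. Of the 6 genes, Vha55 and VhaSFD are the only Vha genes with a DRE, VhaPPA1-1 and Vha26 have a start site within 200 bases of a TAD border, and Vha68-2 and Vha100-1 changed in knockdowns. Each sequence is the 200 bases before the start of the gene, 5′ to 3′ on the strand of the gene, from the RefSeq Release 6 genome, the build of the files (dm6). Capitals mark the DRE and CGATA on either strand, so that TATCG is CGATA on the opposite strand. The windows are chr3R:12627830-12628029 on the minus strand for Vha55, chr2L:16727827-16728026 on the minus strand for VhaSFD, chr3R:14904062-14904261 on the minus strand for VhaPPA1-1, chr3R:5591563-5591762 on the plus strand for Vha26, chr2L:12974122-12974321 on the plus strand for Vha68-2, and chr3R:29130993-29131192 on the plus strand for Vha100-1. They hold no exon of any gene.
Vha55: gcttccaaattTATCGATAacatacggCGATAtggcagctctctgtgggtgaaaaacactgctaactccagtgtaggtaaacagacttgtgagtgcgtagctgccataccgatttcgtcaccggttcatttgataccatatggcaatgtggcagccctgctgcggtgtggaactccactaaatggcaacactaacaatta
VhaSFD: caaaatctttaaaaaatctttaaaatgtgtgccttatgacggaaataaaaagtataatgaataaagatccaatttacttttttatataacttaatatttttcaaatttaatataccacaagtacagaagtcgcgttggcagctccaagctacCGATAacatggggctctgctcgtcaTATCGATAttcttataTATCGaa
VhaPPA1-1: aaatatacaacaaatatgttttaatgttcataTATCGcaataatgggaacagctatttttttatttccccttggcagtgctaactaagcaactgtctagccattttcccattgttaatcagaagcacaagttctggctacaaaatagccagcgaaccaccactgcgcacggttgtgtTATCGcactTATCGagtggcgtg
Vha26: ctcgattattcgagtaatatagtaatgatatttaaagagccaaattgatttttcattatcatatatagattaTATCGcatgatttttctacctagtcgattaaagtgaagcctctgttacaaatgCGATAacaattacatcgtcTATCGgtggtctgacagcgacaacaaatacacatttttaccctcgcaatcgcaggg
Vha68-2: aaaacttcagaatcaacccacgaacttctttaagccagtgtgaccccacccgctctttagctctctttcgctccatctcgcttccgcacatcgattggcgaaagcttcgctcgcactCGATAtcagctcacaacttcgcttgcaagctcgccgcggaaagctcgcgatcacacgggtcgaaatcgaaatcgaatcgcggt
Vha100-1: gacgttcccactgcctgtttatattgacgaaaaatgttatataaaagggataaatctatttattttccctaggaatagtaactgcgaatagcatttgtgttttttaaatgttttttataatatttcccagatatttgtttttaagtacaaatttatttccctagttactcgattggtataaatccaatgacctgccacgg

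Motifs were searched on both strands in windows of 300 bases, 250 before to 50 after each gene start, in all 33 Vha genes and in 13710 promoters of coding genes. A DRE was in 2 of the 33 windows (6.06%), with a share of 9.23% over all promoters. CGATA was in 20 windows (60.6%), with a share of 47.3% over all promoters, and 2 or more CGATA were in 8 windows (24.2%), the same share as over all promoters (24.2%). Among broad genes 13 of 18 windows (72.2%) held CGATA, against 7 of 15 (46.7%) among restricted genes. The sequence CACGTG, the E-box that Mitf and related factors bind, was in 2 windows (6.06%), those of Vha44 and VhaM9.7-d, with 4.2% of all promoters holding it. These matches describe letters in a window and were not tested against binding.

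In WT cells most subunits were supplied by 1 broad gene, the exceptions being A, a and e, with a pair of broad genes each. Vha16-1, which codes for the c subunit of the proton-carrying ring, had the highest level per length, at 347 ± 10.3 CPM per kb of exon (SD, n = 3). It was followed by the stalk subunit gene Vha13 (G), at 203 CPM per kb, and by VhaAC39-1 (d), at 177 CPM per kb. The catalytic A subunit gene Vha68-2, at 146 CPM per kb, and the nucleotide-binding B subunit gene Vha55, at 143 CPM per kb, had nearly equal levels per length. The lowest broad genes were VhaM9.7-c (e), at 12.9 CPM per kb, and Vha68-1 (A), at 9.45 CPM per kb. Of the 10 untested genes, 4 had no count in any library (Vha16-2, Vha16-3, Vha100-3 and VhaM9.7-d) and the other 6 (Vha14-2, Vha16-4, Vha16-5, Vha100-5, VhaAC39-2 and VhaM9.7-a) had at most 4 counts in a library.

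With all 12 libraries few of the broad genes were called in any knockdown. Each knockdown was compared with the same 3 WT libraries, so the 3 comparisons share their control. A gene was called at a Benjamini-Hochberg adjusted p under 0.05 in edgeR's quasi-likelihood test over 10545 genes. In BEAF-32 RNAi, none of the 18 broad genes was called higher or lower, where the test called 18.5% of all genes higher and 15.7% lower. For Cp190 RNAi Chro RNAi cells 1 broad gene was called higher and none lower, against 17.9% and 15.6% of all genes. In BEAF-32 RNAi Dref RNAi, 3 broad genes were called higher and 2 lower, against 21.5% and 20.3% of all genes. The counts of 0 lower genes over the 23 tested were the same with DESeq2, and at an unadjusted p under 0.05 the count of lower genes was 0 in BEAF-32 RNAi cells and 1 in Cp190 RNAi Chro RNAi cells. With BEAF-32 RNAi replicate 3 left out more genes of every kind passed. Of broad genes, BEAF-32 RNAi cells then had 2 called higher and none called lower (all genes: 23.2% and 22.9%), Cp190 RNAi Chro RNAi cells had 4 called higher and 6 called lower (29.2% and 28.4%), and BEAF-32 RNAi Dref RNAi cells had 3 called higher and 10 called lower (30.8% and 30.3%). The share of 10 in 18 lower broad genes in BEAF-32 RNAi Dref RNAi cells is above that background, but only with a library left out that was chosen after seeing the data. With 12 libraries the 5 called there are near or below theirs, as are the other counts of broad genes against WT in this paragraph. Counts between knockdowns are given further below with their own shares.

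**Figure D1:**
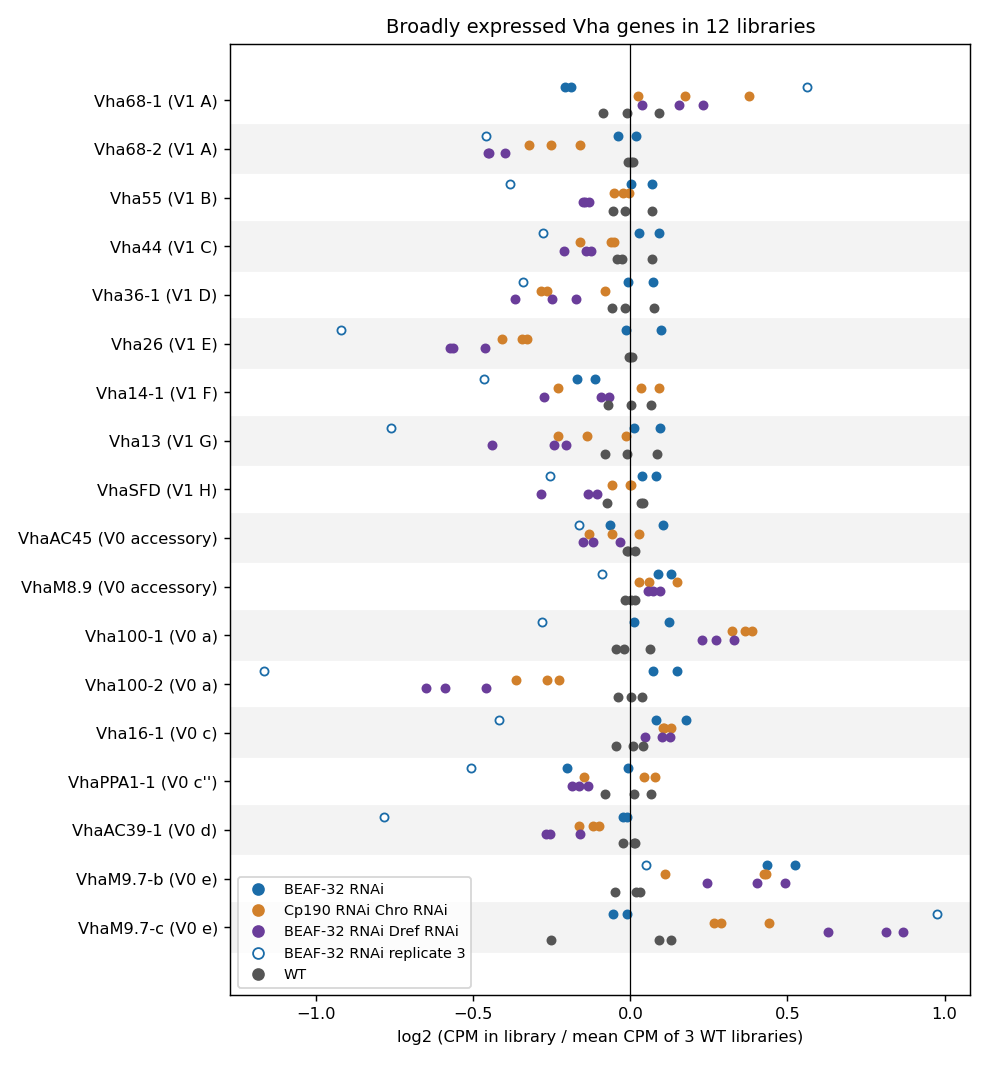
Level of each of the 18 broad Vha genes in each of 12 libraries, as log2 of its CPM over the mean CPM of the 3 WT libraries (horizontal axis), with 1 point per library and 1 row per gene, V1 genes above V0 genes. The open point is BEAF-32 RNAi replicate 3, the lowest library for 13 of the 18 genes, and BEAF-32 RNAi Dref RNAi points lie left of WT for most V1 genes and right of WT for Vha100-1, VhaM9.7-b and VhaM9.7-c.

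The median log2 fold change of the 18 broad genes against WT was -0.06 in BEAF-32 RNAi cells, -0.03 in Cp190 RNAi Chro RNAi cells and -0.15 in BEAF-32 RNAi Dref RNAi cells, where the medians over all genes were 0.07, 0.02 and 0.03. The median of the 9 broad V1 genes was -0.09, -0.09 and -0.17 in the same order of knockdowns, and 8 of 9 lay below 0 in each. The 9 broad V0 genes had medians of -0.04, 0.08 and 0.07. When BEAF-32 RNAi replicate 3 was left out, the median of the broad genes in BEAF-32 RNAi cells was 0.04 (0.02 over all genes), with 6 of 9 V1 genes above 0, so the low median of that knockdown rests on 1 library. Summed over the 9 broad V1 genes, expression was 1982 ± 31.0 CPM in BEAF-32 RNAi replicates 1 and 2 (1781 ± 348 with replicate 3), 1739 ± 30.3 CPM in Cp190 RNAi Chro RNAi cells and 1580 ± 19.3 CPM in BEAF-32 RNAi Dref RNAi cells, against 1948 ± 32.9 CPM in WT (SD, n = 3 unless 2 are named). The same sum over V0 genes was 2578 ± 58.2 CPM (2329 ± 433 with replicate 3), 2540 ± 28.9 CPM and 2455 ± 29.3 CPM, against 2415 ± 33.4 CPM in WT. The V1 sums of both double knockdowns lay below all WT libraries, while the V0 sum of BEAF-32 RNAi Dref RNAi overlapped WT.

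Among V1 genes, Vha68-2, the main gene of the catalytic A subunit, and Vha26, which codes for the E subunit of the outer stalk, fell in BEAF-32 RNAi Dref RNAi cells. Vha68-2 had 295.9, 306.1 and 295.3 CPM in BEAF-32 RNAi Dref RNAi cells, against 401.8, 406.0 and 404.3 CPM in WT. All 3 knockdown libraries were below all WT libraries, and the log2 fold change was -0.43 ± 0.11 (SE; edgeR quasi-likelihood adjusted p = 0.00773). In Cp190 RNAi Chro RNAi it had 361.3, 338.8 and 322.7 CPM, also below every WT library, with a log2 fold change of -0.25 that was not called with 12 libraries (edgeR adjusted p = 0.0969) and was called without BEAF-32 RNAi replicate 3 (edgeR adjusted p = 3.64e-06). BEAF-32 RNAi replicates 1 and 2 had 408.6 and 393.4 CPM, on either side of the WT range, and replicate 3 had 293.6 CPM. The fall in BEAF-32 RNAi Dref RNAi cells kept an edgeR or DESeq2 adjusted p under 0.05 in each of 14 other fits, the highest being 0.0372, but it does not reach a log2 fold change of 1 in size.

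Vha26 showed the same order of groups. It had 286.4, 307.3 and 284.2 CPM in BEAF-32 RNAi Dref RNAi cells, against 423.0, 421.5 and 425.1 CPM in WT. The log2 fold change was -0.53 ± 0.19 (SE; edgeR adjusted p = 0.0424 with 12 libraries and 2.61e-16 without BEAF-32 RNAi replicate 3). The call was lost when any 1 library of either group was left out while BEAF-32 RNAi replicate 3 stayed in, with edgeR adjusted p of 0.078 to 0.119. Cp190 RNAi Chro RNAi libraries had 336.8, 333.1 and 318.6 CPM, between both other groups, with a log2 fold change of -0.36 against WT, called only without BEAF-32 RNAi replicate 3 (edgeR adjusted p = 2.38e-10). BEAF-32 RNAi replicates 1, 2 and 3 had 452.9, 419.0 and 223.5 CPM, so that replicate 3 was the lowest library of all for Vha26.

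The other 7 broad V1 genes were called in no comparison with 12 libraries. Without BEAF-32 RNAi replicate 3, 7 of the 9 broad V1 genes were called lower in BEAF-32 RNAi Dref RNAi cells than WT, and Vha14-1 (F) and Vha68-1 (A) were not. Beside Vha68-2 and Vha26 the 7 were Vha13, which codes for the G subunit of the outer stalk (-0.30 ± 0.06 SE), Vha36-1, for the D subunit of the central stalk (-0.27), VhaSFD (H, -0.18), Vha44 (C, -0.16) and Vha55 (B, -0.15), all log2 fold changes. Vha13 had 141.1, 166.1 and 161.8 CPM in BEAF-32 RNAi Dref RNAi cells, against 181.1, 203.3 and 190.1 CPM in WT. Its knockdown libraries were below all WT libraries (edgeR adjusted p = 5.11e-06 without BEAF-32 RNAi replicate 3). In Cp190 RNAi Chro RNAi the V1 genes called lower without that replicate were Vha68-2, Vha26, Vha36-1 (-0.21) and Vha13 (-0.13).

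Vha55 and VhaSFD, the genes with a DRE among the sequences above, were among the smaller differences. Vha55 had 357.7, 359.9 and 363.0 CPM in BEAF-32 RNAi Dref RNAi cells, against 382.2, 392.7 and 417.2 CPM in WT. The groups did not overlap, but the difference was called only without BEAF-32 RNAi replicate 3 (edgeR adjusted p = 0.00364). VhaSFD had 127.1, 112.5 and 124.8 CPM in BEAF-32 RNAi Dref RNAi cells, against 130.1, 140.0 and 140.7 CPM in WT, and was likewise called only without that replicate (edgeR adjusted p = 0.00538).

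In the V0 sector the a subunit genes Vha100-1 and Vha100-2 lay on opposite sides of WT in both double knockdowns. Vha100-1, the a subunit known for its role at neuronal synaptic vesicles, had 297.6, 293.1 and 284.4 CPM in Cp190 RNAi Chro RNAi cells, against 224.5, 220.4 and 237.5 CPM in WT. It rose there with a log2 fold change of 0.36 ± 0.09 (SE; edgeR adjusted p = 0.013), and all knockdown libraries were above all WT libraries. BEAF-32 RNAi Dref RNAi libraries had 266.3, 275.0 and 285.7 CPM, again above every WT library, with a log2 fold change of 0.28 ± 0.09 (SE; edgeR adjusted p = 0.0335). Leaving out any 1 library of these groups with BEAF-32 RNAi replicate 3 kept in ended the call in BEAF-32 RNAi Dref RNAi cells (edgeR adjusted p of 0.0543 to 0.114). In Cp190 RNAi Chro RNAi only leaving out WT replicate 2 did so (edgeR adjusted p = 0.0527). With BEAF-32 RNAi replicate 3 left out both were called, at 2.34e-09 in Cp190 RNAi Chro RNAi cells and 1.97e-06 in BEAF-32 RNAi Dref RNAi cells. In BEAF-32 RNAi it had 229.4, 247.7 and 187.1 CPM, which overlapped WT.

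Vha100-2, the other a subunit gene expressed in these cells, lay lower in the double knockdowns. It had 95.92, 109.6 and 99.95 CPM in BEAF-32 RNAi Dref RNAi cells, against 150.8, 154.4 and 146.6 CPM in WT. The log2 fold change was -0.57, with an edgeR adjusted p of 0.0825 with 12 libraries and 1.37e-13 without BEAF-32 RNAi replicate 3. In Cp190 RNAi Chro RNAi it had 125.2, 128.7 and 117.0 CPM, a log2 fold change of -0.29 (edgeR adjusted p = 8.59e-06 without that replicate, not called with it). The 3 libraries of each double knockdown were below every WT library. BEAF-32 RNAi replicates 1 and 2, at 167.0 and 158.4 CPM, were above every WT library, and replicate 3, at 67.11 CPM, was the lowest of all.

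Because both a subunit genes were measured in the same library, their balance can be given as the share of Vha100-1 in the summed CPM per kb of the 5 a subunit genes. That share was 69.95, 69.03 and 70.43% in Cp190 RNAi Chro RNAi libraries and 73.02, 70.92 and 73.59% for BEAF-32 RNAi Dref RNAi libraries, against 59.31, 58.31 and 61.34% in WT. Every library of both double knockdowns was above every WT library. In BEAF-32 RNAi it was 57.37 and 60.49% in replicates 1 and 2, which overlapped WT, and 73.00% in replicate 3. The mean share in BEAF-32 RNAi cells was 63.6 ± 8.28% with 3 replicates and 58.9% with replicates 1 and 2. The other 3 a subunit genes held at most 0.268% of the sum in any library.

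**Figure D2:**
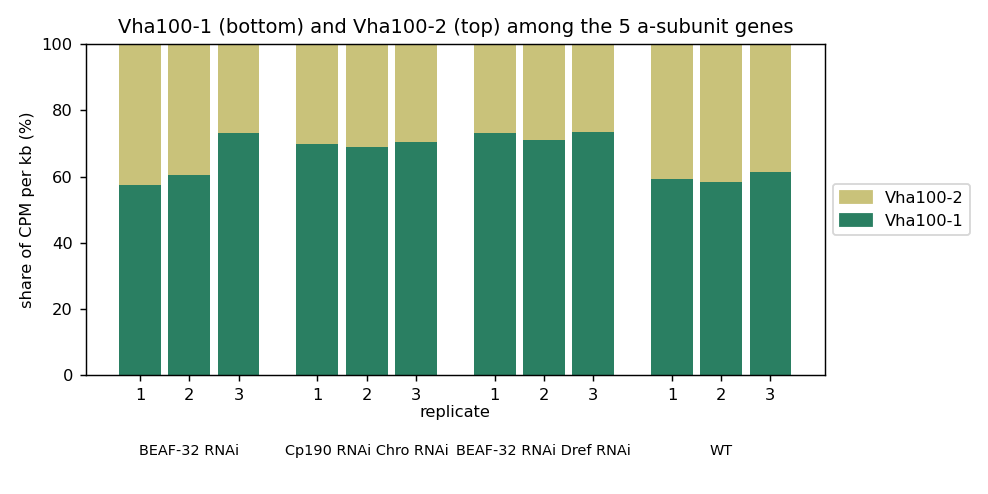
Share of Vha100-1 (lower bar) and Vha100-2 (upper bar) in the summed CPM per kb of the 5 a subunit genes, in percent, for each replicate of each group. Vha100-1 held 69.0 to 73.6% in the libraries of both double knockdowns, against 58.3 to 61.3% in WT, and 57.4, 60.5 and 73.0% in BEAF-32 RNAi cells.

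The e subunit genes VhaM9.7-b and VhaM9.7-c, which code for a small hydrophobic V0 protein, both rose in BEAF-32 RNAi Dref RNAi cells. VhaM9.7-b had 107.3, 100.9 and 90.4 CPM there, against 77.18, 77.93 and 73.82 CPM in WT, a log2 fold change of 0.38 ± 0.13 (SE; edgeR adjusted p = 0.0309). It was also above every WT library in Cp190 RNAi Chro RNAi cells, at 82.31, 102.4 and 102.9 CPM, and in BEAF-32 RNAi cells, at 109.8, 103.2 and 79.06 CPM. These differences were not called with 12 libraries (edgeR adjusted p = 0.065 and 0.0505) and were called without BEAF-32 RNAi replicate 3 (4.44e-05 in Cp190 RNAi Chro RNAi cells and 2.66e-07 in BEAF-32 RNAi cells). VhaM9.7-b was thus higher than WT in 9 of 9 knockdown libraries. VhaM9.7-c had 19.2, 19.93 and 16.88 CPM in BEAF-32 RNAi Dref RNAi cells, against 11.64, 9.169 and 11.94 CPM in WT. The log2 fold change was 0.77 ± 0.24 (SE; edgeR adjusted p = 0.0234), the largest among broad genes called with 12 libraries. Cp190 RNAi Chro RNAi libraries had 14.82, 13.33 and 13.12 CPM, above WT but called only without BEAF-32 RNAi replicate 3 (log2 fold change 0.33, edgeR adjusted p = 0.0403), and BEAF-32 RNAi had 10.5 and 10.85 CPM in replicates 1 and 2 and 21.47 CPM in replicate 3. Both calls in BEAF-32 RNAi Dref RNAi cells were lost when replicate 1 or 2 of that knockdown or WT replicate 1 or 2 was left out with BEAF-32 RNAi replicate 3 kept in, with edgeR adjusted p between 0.0504 and 0.108, and that of VhaM9.7-b also without WT replicate 3 (0.0922).

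The remaining V0 genes differed little. Vha16-1 had 1128, 1205 and 798.9 CPM in BEAF-32 RNAi cells, 1148, 1167 and 1147 CPM in Cp190 RNAi Chro RNAi cells and 1164, 1102 and 1144 CPM in BEAF-32 RNAi Dref RNAi cells, against 1096, 1034 and 1072 CPM in WT. Apart from BEAF-32 RNAi replicate 3 all knockdown libraries were above the WT libraries, with log2 fold changes of 0.13, 0.11 and 0.08 without that replicate, the first 2 of which were called (edgeR adjusted p = 0.0233 and 0.0274). VhaAC39-1, which codes for the d subunit that links the V0 ring to the central stalk, had 283.8, 262.9 and 265.6 CPM in BEAF-32 RNAi Dref RNAi cells, against 319.9, 319.5 and 311.7 CPM in WT. It was called lower without BEAF-32 RNAi replicate 3 (log2 fold change -0.23, edgeR adjusted p = 1.4e-05), as was VhaPPA1-1 (c'', -0.17, edgeR adjusted p = 0.0155), and in Cp190 RNAi Chro RNAi cells VhaAC39-1 was called lower as well (-0.13, edgeR adjusted p = 0.0121). The accessory genes VhaAC45 and VhaM8.9 were called in no comparison with either set of libraries.

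**Figure D3:**
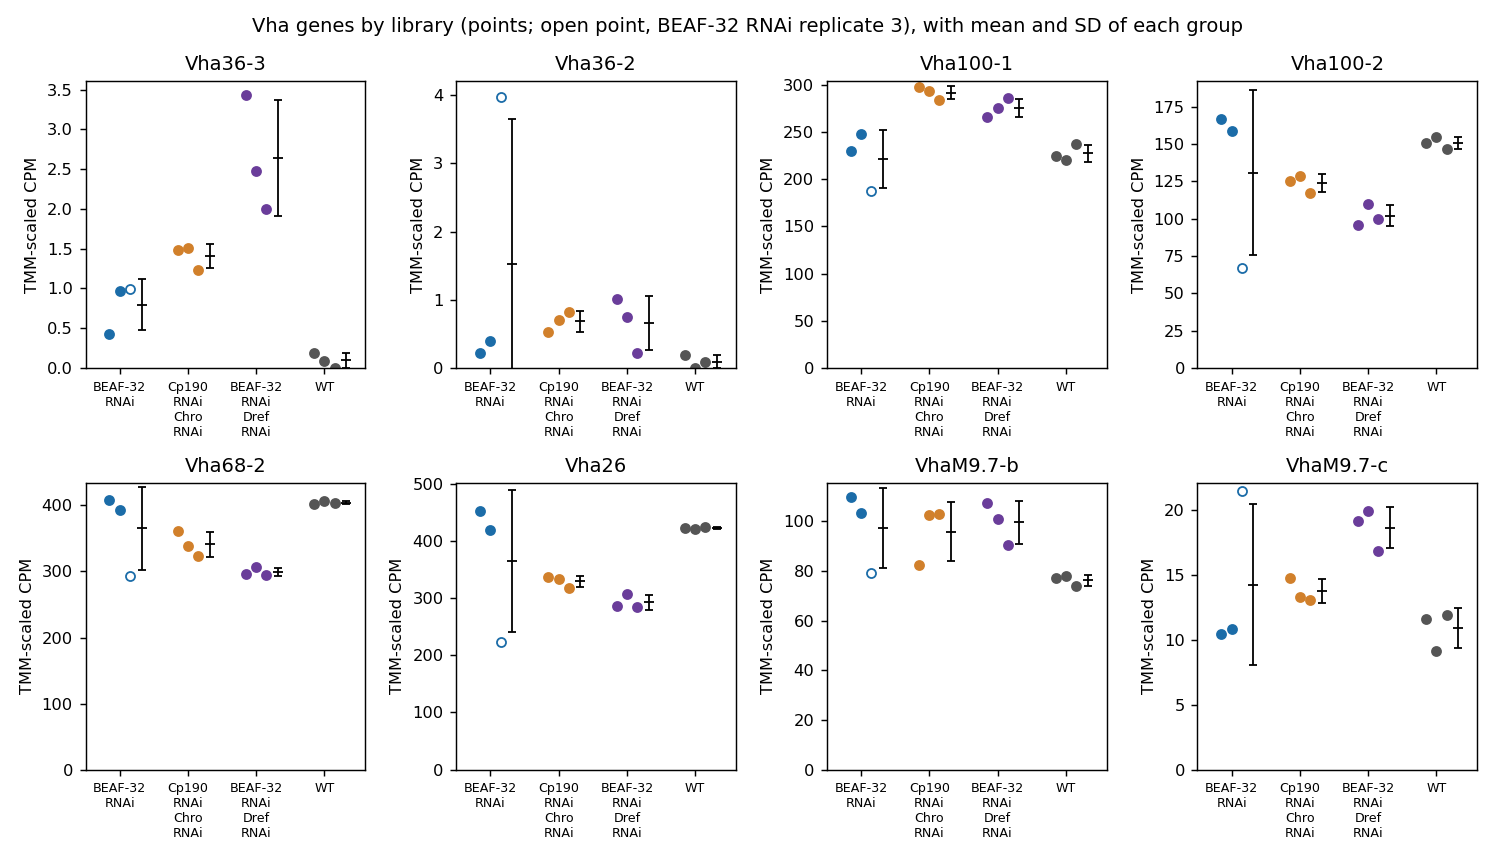
TMM-scaled CPM of 8 Vha genes in each library (vertical axis, from 0), by group, with the mean and SD of each group beside its points and the lower end of bars that would pass 0 not drawn. The open point is BEAF-32 RNAi replicate 3. Vha36-3 is higher in all 9 knockdown libraries than in WT, Vha100-1 and Vha100-2 lie on opposite sides of WT in both double knockdowns, and Vha68-2 and Vha26 are lowest in BEAF-32 RNAi Dref RNAi cells except for that open point.

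Among restricted genes, Vha36-3, a paralog of the D subunit gene Vha36-1, was close to silent in WT and rose in each knockdown. It had 4, 10 and 7 counts in BEAF-32 RNAi cells, 17, 15 and 15 counts in Cp190 RNAi Chro RNAi cells and 34, 20 and 18 counts in BEAF-32 RNAi Dref RNAi cells, against 2, 1 and 0 counts in WT. All 9 knockdown libraries were above all WT libraries. The gene reached the minimum of 10 counts only through the knockdowns where it is high, so its p-values are descriptive. Relative to the 3 WT counts, the ratio of CPM was 8.7 in BEAF-32 RNAi cells (exact 95% counting interval 2.6 to 45.5), 15.5 in Cp190 RNAi Chro RNAi cells (4.99 to 77.8) and 29.6 in BEAF-32 RNAi Dref RNAi cells (9.73 to 147), intervals which cover counting error only. The edgeR adjusted p was 0.00714, 0.00119 and 0.000189 in that order of knockdowns, and 0.0058, 3.19e-06 and 1.64e-09 without BEAF-32 RNAi replicate 3. The call in BEAF-32 RNAi cells held in 12 of 13 other fits. It was lost when that knockdown was fitted with WT alone (edgeR adjusted p = 0.0709). Vha36-1 still held 97.1 to 98.3% of the summed CPM per kb of the 3 D subunit genes in BEAF-32 RNAi Dref RNAi cells, against 99.77 to 99.95% in WT. Vha36-3 lies on chromosome X at 2579091 to 2580560 in dm6, and 0.0911% of its 50-base stretches occur in another Vha gene.

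Vha36-2, the third D subunit gene, had 2, 4 and 28 counts in BEAF-32 RNAi cells, against 2, 0 and 1 counts in WT. It was called higher there (edgeR adjusted p = 0.0292, ratio 14.1, exact 95% interval 4.43 to 71.7), and 28 of its 34 counts came from replicate 3. Without that library the ratio was 3.37 (exact 95% interval 0.72 to 20.8) and the call was lost (edgeR adjusted p = 0.242). The call was also lost with 12 libraries less any 1 WT replicate (edgeR adjusted p of 0.0529 to 0.0918). Cp190 RNAi Chro RNAi had 6, 7 and 10 counts, a ratio of 7.58 (exact 95% interval 2.29 to 39.5), and BEAF-32 RNAi Dref RNAi 10, 6 and 2 counts, a ratio of 7.4 (2.16 to 39.2). Both were called only without BEAF-32 RNAi replicate 3 (edgeR adjusted p = 0.00505 and 0.007).

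Vha100-4, a restricted a subunit gene, had 4, 5 and 4 counts in BEAF-32 RNAi Dref RNAi cells, against 1, 0 and 0 counts in WT, a ratio of 16 (exact 95% interval 2.41 to 681). The difference was at an edgeR adjusted p of 0.052 with 12 libraries and 0.00706 without BEAF-32 RNAi replicate 3, and the other knockdowns had 0, 0 and 4 counts (BEAF-32 RNAi) and 0, 1 and 0 counts (Cp190 RNAi Chro RNAi). Vha68-3 and VhaPPA1-2 were called in no comparison. All 5 tested restricted genes had fewer than 10 counts in WT, with 5 for Vha68-3 and 8 for VhaPPA1-2, and reached that minimum only through the knockdowns. For that reason only counts of broad genes are set against the background. All 15 restricted genes together summed to 3.59, 2.93 and 4.67 CPM in BEAF-32 RNAi cells, Cp190 RNAi Chro RNAi cells and BEAF-32 RNAi Dref RNAi cells, against 0.792 CPM in WT. These genes were set apart by their low level in the same WT libraries, so nothing is supported with this difference. Of the BEAF-32 RNAi libraries, replicate 3 had 7.39 CPM and replicates 1 and 2 had 0.955 and 2.42 CPM.

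Markers of tissues that express restricted paralogs were measured beside them. Of 11 testis markers, 4 reached a mean of 1 CPM in each knockdown and 2 did so in WT, and their sum ranged between 34.6 and 68.2 CPM in BEAF-32 RNAi cells, 47.8 and 51.8 CPM in Cp190 RNAi Chro RNAi cells and 43.6 and 50.3 CPM in BEAF-32 RNAi Dref RNAi cells, against 74.7 and 81.0 CPM in WT. Of the 4 tested, 2 were called higher and 1 lower in each knockdown, with median log2 fold changes of 0.98, 0.56 and 0.56, so that the median and the sum went opposite ways. Without BEAF-32 RNAi replicate 3, 2 were lower in each double knockdown. The spermatocyte regulators aly and can and the sperm gene dj had no count in any group. None of 5 Malpighian tubule and gut markers reached 1 CPM in any group, with sums of at most 0.995, 0.523 and 1.11 CPM in the knockdowns in the same order, against at most 0.0917 CPM in WT, and of 2 tested 1, 0 and 1 were called higher. The part of these cell types in the levels of restricted Vha genes was not tested. The shares of all genes called, given above for broad genes, belong beside these and the next marker counts.

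Markers of the labelled tissue were present in part. Of 7 neuron markers 4 were at 1 CPM or more in every group, elav among them, with sums of 105 to 132 CPM in BEAF-32 RNAi cells, 119 to 138 CPM in Cp190 RNAi Chro RNAi cells and 124 to 131 CPM in the BEAF-32 RNAi Dref RNAi libraries, against 84.1 to 91.7 CPM in WT. These sums were above WT in all 9 knockdown libraries, while Vha100-1 was above WT in the 6 libraries of the double knockdowns, and their part in that result was not tested. Of 7 neuron markers tested, 1, 2 and 2 were called higher and 0 lower (1, 3 and 3 higher without BEAF-32 RNAi replicate 3, with 1 lower in BEAF-32 RNAi cells). Of 5 glia markers 4 reached 1 CPM, with sums of 372 to 608 CPM, 629 to 641 CPM and 532 to 561 CPM in the same order of knockdowns, against 906 to 935 CPM in WT. Of 4 glia markers tested, each knockdown had 1 called lower and none called higher, while the median log2 fold changes were -0.10, 0.40 and 0.18. Leaving out that replicate, the higher calls numbered 1, 3 and 2 and the lower calls 3, 1 and 1. Of 7 neuroblast markers 3 reached 1 CPM, with sums of 22.3 to 84.7 CPM over the knockdowns, against 42.4 to 43.4 CPM in WT. Of 6 tested, 3, 2 and 2 were called higher, and each knockdown had 1 called lower (3, 3 and 2 higher without that replicate), at medians of 1.51, 1.14 and 0.64, above 0 also where the sum was below WT. Of 7 hemocyte markers 3 or 4 reached it, with sums of 607 to 877 CPM over the knockdowns, against 819 to 848 CPM in WT, while the hemocyte marker He had no count. Of 6 hemocyte markers tested, BEAF-32 RNAi cells had 2 called higher and BEAF-32 RNAi Dref RNAi cells 2 called lower, and no other call was made (without that replicate the higher calls numbered 3, 1 and 0 and the lower calls 1, 1 and 2), at medians of 0.95, 0.35 and -0.11. BEAF-32 RNAi replicate 3 had the highest neuroblast sum of its group (84.7 CPM, against 28.3 and 33.1 CPM in replicates 1 and 2) and the lowest glia sum (372 CPM, against 602 and 608 CPM).

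Direct comparison of the knockdowns tests whether their effects on Vha genes differ. Vha100-1 was higher in Cp190 RNAi Chro RNAi cells than in BEAF-32 RNAi cells by a log2 fold change of 0.40 ± 0.09 (SE; edgeR adjusted p = 0.0289), and no library of 1 group overlapped the other. It was the only broad gene of 18 called in this pair, where 6.9% of all genes were called, and no restricted gene was called. When BEAF-32 RNAi replicate 3 was left out, the log2 fold change was 0.29 (edgeR adjusted p = 1.33e-05), and 8 of 18 broad genes were called, where 37.9% of all genes were. Leaving out any 1 Cp190 RNAi Chro RNAi library with that replicate kept in ended the call (edgeR adjusted p of 0.0782 to 0.0965). It was also lost with library totals in place of TMM scaling, with the replicate number as a block and with both groups fitted alone (edgeR adjusted p = 0.0514, 0.0565 and 0.28).

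Between BEAF-32 RNAi Dref RNAi and BEAF-32 RNAi, edgeR called 0 of 18 broad and 0 of 5 restricted genes, where 5.74% of all genes were called. At an unadjusted p under 0.05 there were 3 Vha genes, and DESeq2 called 2. Without BEAF-32 RNAi replicate 3 edgeR called 12 of 18 broad genes, of which BEAF-32 RNAi Dref RNAi cells had 3 at a higher level and 9 at a lower one, where 42.9% of all genes were called. The lower genes were Vha100-2 (log2 fold change -0.69), Vha26 (-0.58), Vha68-2 (-0.43), Vha13 (-0.36), Vha36-1 (-0.30), VhaSFD (-0.24), Vha44 (-0.23), VhaAC39-1 (-0.22) and Vha55 (-0.19), 7 of which code for V1 subunits. The higher broad genes were VhaM9.7-c (0.80), Vha68-1 (0.34) and Vha100-1 (0.20). The restricted Vha36-3 (1.88) and Vha100-4 were called higher too, at the counts given above. All 4 counts of Vha100-4 in BEAF-32 RNAi cells lie in replicate 3, the library left out here. With 12 libraries its edgeR adjusted p in this pair was 0.465. Both genes reached the minimum count only through the knockdowns, so these calls are descriptive.

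Between BEAF-32 RNAi Dref RNAi and Cp190 RNAi Chro RNAi, edgeR called 0 of 18 broad and 0 of 5 restricted genes, and 0% of all genes. At an unadjusted p under 0.05 there were 1 Vha gene and 405 genes in all, and DESeq2 called 0 Vha genes and 6 genes in all. With BEAF-32 RNAi replicate 3 left out 12.8% of all genes were called, and 5 of 18 broad Vha genes. Vha100-2, Vha68-2, Vha26 and Vha13 were lower in BEAF-32 RNAi Dref RNAi cells with log2 fold changes of -0.28, -0.19, -0.18 and -0.17, and VhaM9.7-c was higher, with 0.44. The restricted Vha100-4 was called higher too, at the few counts given above, and this call is descriptive for the same reason. The 9 broad V1 genes lay below 0 in this pair, at a median of -0.12. BEAF-32 RNAi replicate 3 is in neither group, so leaving it out hardly moves these fold changes and is no second observation.

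The genes around the pump were examined in lists written from general knowledge of their function, with earlier results of these data known. Mitf, a transcription factor known to activate V-ATPase and lysosomal genes, fell in each knockdown. It averaged 125 ± 9.12 CPM in BEAF-32 RNAi cells, 92.7 ± 1.91 CPM in Cp190 RNAi Chro RNAi cells and 100.3 ± 7.89 CPM in BEAF-32 RNAi Dref RNAi cells, against 180.4 ± 0.511 CPM in WT (SD, n = 3 each). The log2 fold changes were -0.53, -0.96 and -0.85, with edgeR adjusted p of 0.000486, 7.54e-06 and 1.49e-05. It was the only gene called of 4 tested in the list of assembly factors and regulators, which also holds Rbcn-3A and Rbcn-3B, the rabconnectins that help V1 and V0 assemble, and VhaM8.9. When BEAF-32 RNAi replicate 3 was left out, 2 of the 4 fell in BEAF-32 RNAi cells, 1 rose and 1 fell in Cp190 RNAi Chro RNAi cells, and 1 fell in BEAF-32 RNAi Dref RNAi cells.

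Of 12 tested genes of lysosomal hydrolases and membrane proteins, 7 rose and none fell in Cp190 RNAi Chro RNAi cells and in BEAF-32 RNAi Dref RNAi cells, with median log2 fold changes of 0.31 and 0.35 over the list, while in BEAF-32 RNAi cells 1 rose and 2 fell, with a median of 0.00. Without BEAF-32 RNAi replicate 3 these counts were 8 and 1, 7 and 3, and 2 and 4. The shares of all genes called, given above, were 17.9% (higher) and 15.6% (lower) for the Cp190 RNAi Chro RNAi knockdown and 21.5% and 20.3% for the other double knockdown, or 29.2%, 28.4%, 30.8% and 30.3% without that replicate. The list was not tested as a set. The cathepsin L gene Cp1 rose in each, with 898 ± 32.2 CPM in BEAF-32 RNAi cells, 1398 ± 44.5 CPM in Cp190 RNAi Chro RNAi cells and 1454 ± 21.4 CPM in BEAF-32 RNAi Dref RNAi cells, against 384.7 ± 10.5 CPM in WT (SD, n = 3 each). The saposin precursor gene Sap-r rose by log2 fold changes of 0.60 and 0.57 in the double knockdowns as listed, and Lamp1, a lysosomal membrane glycoprotein gene, by 0.28 and 0.42. The chloride channel gene ClC-b (-0.32) and the palmitoyl-protein thioesterase gene Ppt1 (-0.31) fell in BEAF-32 RNAi cells.

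Of 17 autophagy genes, 1 rose and 3 fell in BEAF-32 RNAi cells, 2 rose and 1 fell in Cp190 RNAi Chro RNAi cells, and 2 rose and 2 fell in BEAF-32 RNAi Dref RNAi cells. Without replicate 3 of BEAF-32 RNAi the counts were 2 and 3, 5 and 4, and 4 and 3 in that order. The autophagy receptor gene ref(2)P rose in each, by log2 fold changes of 1.22, 1.01 and 1.32. Of 10 genes for endolysosomal fusion 2 rose in each knockdown, Rab7 among them (0.32, 0.34 and 0.32), and CG32350, the Vps11 gene, fell in both double knockdowns (-0.85 and -0.58). With BEAF-32 RNAi replicate 3 left out the fusion genes called higher were 4, 4 and 5, with 1 lower in each. Of 6 genes for the Ragulator and Rag GTPases, which tie the pump to TOR signalling, 1 fell in BEAF-32 RNAi cells, 1 rose in Cp190 RNAi Chro RNAi cells and 1 fell in BEAF-32 RNAi Dref RNAi cells. Leaving out that replicate gave 2 higher and 1 lower, 2 and 2, and 3 and 1. Genes of the mitochondrial F-type ATP synthase, the related enzyme that runs the other way, had 0 higher and 4, 4 and 5 of 12 lower in the knockdowns in the same order, with medians of -0.25, -0.26 and -0.30. When BEAF-32 RNAi replicate 3 was left out, the lower counts were 5, 10 and 9. Beside all these lists, the shares of all genes called higher were 18.5%, 17.9% and 21.5% in the same order of knockdowns. The shares called lower were 15.7%, 15.6% and 20.3%. Without that replicate they were 23.2%, 29.2% and 30.8% higher and 22.9%, 28.4% and 30.3% lower. None of the lists was tested as a set. The rises and falls given here for Mitf, Cp1, Sap-r, Lamp1, ClC-b, Ppt1, ref(2)P, Rab7 and CG32350 were all called without that replicate too, with an edgeR adjusted p of at most 0.000316, that of Ppt1.

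The position of Vha genes relative to TAD borders was compared between knockdowns, since BEAF-32, Cp190, Chro and Dref act at borders. There was 1 list of borders per knockdown, with no replicate and no WT list here, so shares are descriptions. A start site lay within 2 kb of a border for 8 of 33 Vha genes (24.2%) in the BEAF-32 RNAi list, 7 (21.2%) in the Cp190 RNAi Chro RNAi list and 5 (15.2%) in the BEAF-32 RNAi Dref RNAi list, where the shares of all genes were 18.8%, 15.4% and 7.31%. Among broad genes these were 7, 6 and 3 of 18, and among restricted genes 1, 1 and 2 of 15. The lists hold 2557, 2163 and 1417 borders, and the median distance of a Vha gene start to a border was 6.57, 9.86 and 13.1 kb, against 10.3, 13.1 and 31.3 kb over all genes. In the lists of strong TADs the counts were 5, 3 and 0 of 33 (15.2%, 9.09% and 0%), where the shares of all genes were 7.62%, 5.2% and 1.41%. By the supplement of the study, a BEAF-32 RNAi Dref RNAi replicate had the fewest Hi-C read pairs used among the knockdown replicates. The part of Hi-C depth in the lists was not tested.

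The B subunit gene Vha55, with a DRE and a further CGATA in the sequence above, started 77 bp from a border in all 3 lists, and Vha13 started 457 bp from one in all 3. VhaPPA1-1 started 66 bp from a border in the BEAF-32 RNAi and the Cp190 RNAi Chro RNAi lists and 1423 bp from one in the BEAF-32 RNAi Dref RNAi list. Vha26 started 115 bp from a border in the same first 2 lists, and its nearest border in the BEAF-32 RNAi Dref RNAi list was 32654 bp away. Vha100-2 (497, 497 and 15182 bp) and Vha16-1 (364, 973 and 19735 bp) had the same order. Vha68-2 was near a border only in the BEAF-32 RNAi list (406 bp, against 47108 and 9691 bp in the lists of both double knockdowns), and Vha100-1 had its nearest border 8139, 16954 and 17357 bp away in the BEAF-32 RNAi list and those of the double knockdowns.

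**Figure D4:**
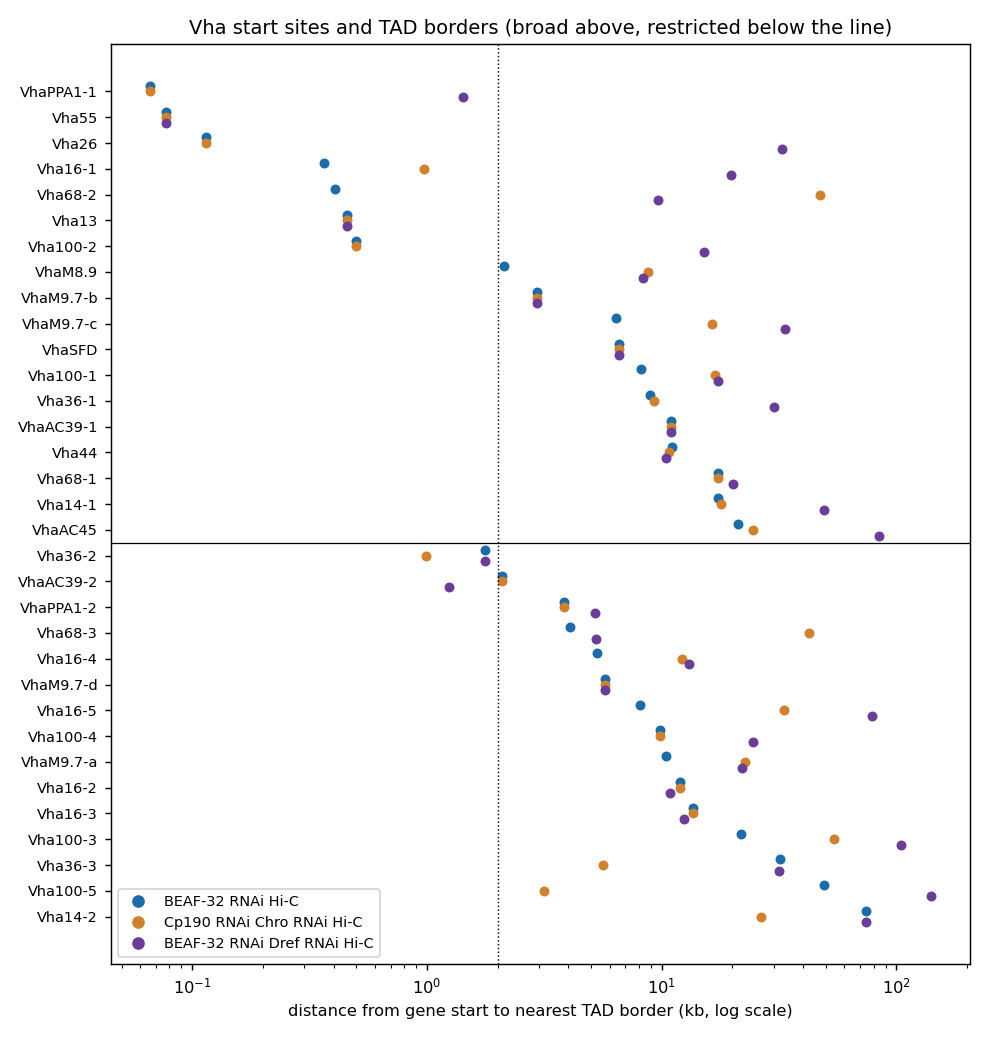
Distance from the start of each of the 33 Vha genes to the nearest TAD border of each knockdown's Hi-C list, in kb on a log axis, with broad genes above the line and restricted genes below it and a dotted line at 2 kb. Vha55 and Vha13 lie left of 2 kb in all 3 lists, and Vha26, Vha16-1 and Vha100-2 do so in the BEAF-32 RNAi and the Cp190 RNAi Chro RNAi lists but not in the BEAF-32 RNAi Dref RNAi list.

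A start site lay in a loop anchor for 1 of 33 Vha genes in the BEAF-32 RNAi list, 0 in the Cp190 RNAi Chro RNAi list and 1 in the BEAF-32 RNAi Dref RNAi list (3.03%, 0% and 3.03%), where the shares of all genes were 3.49%, 6.04% and 2.35%. The gene in BEAF-32 RNAi cells was Vha100-4, in the anchor chr3R:18388001-18390000 in dm6, whose loops reached chr3R:18372001-18374000, where CG14310 and gl start, and chr3R:18304001-18306000, where no gene starts. The gene in BEAF-32 RNAi Dref RNAi cells was Vha14-2, in the anchor chr3R:6122001-6124000 with the other anchor at chr3R:6138001-6140000, where no gene starts.

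Several paralogs are neighbours in the genome. Vha68-2 and Vha68-3 are 178 bp apart on chromosome 2L, on the same strand, with Vha68-1 19476 bp further on the opposite strand, and 3.87% of the 50-base stretches of Vha68-2 occur in another Vha gene, and short reads from those stretches cannot be told apart. On chromosome 3R, Vha100-4 lies 517 bp from Vha100-2 and VhaPPA1-2 lies 2052 bp from VhaPPA1-1. The restricted Vha36-2 and Vha36-3 are on chromosomes 2R and X, apart from each other and from Vha36-1. Of the tested genes, none shared more than 3.68% of its exon length with a gene on the opposite strand.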

How the data were processed

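RNA-seq counts per gene were deposited for 12 libraries, 3 of each of 4 groups, taken from the sample labels. Per the paper's methods and the labels, the deposited counts come from poly(A) reads that the authors trimmed (Trimmomatic 0.39) and mapped to the dm6 genome (TopHat2 2.1.2 on Bowtie2 2.3.4.1). Duplicates were dropped by Picard before HTSeq counted reads per gene at default settings, and the strand of the kit was not given in the sources used here. TADs of at least 5 kb were called by HiCExplorer at the resolution of DpnII fragments and loops by HiCCUPS at 2 kb, on merged replicates. Only their positions were used, and the p-values, q-values, scores and signal that the authors deposited beside them were not.

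Rows of reads assigned to no gene were left out of library sizes: no feature 39.4 to 44.1%, ambiguous 0.486 to 0.598% and not unique 16.0 to 29.5% of each library. The share not unique was 16.0 to 17.0% in WT libraries and 21.0 to 29.5% in knockdown libraries. Genes with a count numbered 10051 to 10118 in WT libraries and 10567 to 10955 in knockdown libraries. The part of these differences in the levels of near-silent genes was not tested. Gene counts per library ranged between 7178403 and 12202598. Of 16727 gene symbols, 12512 matched the RefSeq annotation by symbol, 3996 by synonym and 219 did not, and 98.6% had a position.

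Genes with 10 or more counts in all were fitted over the 12 libraries with TMM scaling in edgeR 4.0.16 (R 4.3.3, glmQLFit and glmQLFTest), with Benjamini-Hochberg adjustment over all genes. Standard errors were derived from the F statistic. CPM is the count of a gene divided by its library's total over tested genes times the TMM factor, in the usual units. Alternatives were DESeq2 1.42.0, other scaling, no filter beyond 1 count, a fold threshold, the 2 groups alone, a replicate block and leaving out each library, and the fit was tested on simulated data. A first criterion for that test, a guessed share of changed genes recovered at each fold, was missed for the smaller fold by edgeR and DESeq2 and was then replaced by unbiased estimates and recovery of the larger fold. DESeq2 made more false calls in it than edgeR. Tables were joined in Python 3.11.15 with pandas 2.3.3 and scipy 1.17.1.

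Values per library are given for each Vha gene called against WT (up to 12 at 10 CPM or more in WT by smallest p, and up to 8 below it), for up to 5 called between knockdowns, and beyond this rule for Vha55, VhaSFD, Vha13, Vha100-2, Vha100-4, Vha16-1 and VhaAC39-1, chosen after their values were seen. From each pathway list up to 3 genes per direction were eligible. The Vha genes and the lists were chosen with earlier results of these data known.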

Additional observations from a re-analysis of the deposited data

Results flagged for a closer look

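Vha100-1 was flagged because its effects in 2 knockdowns differed by a test of the difference itself. It was higher in Cp190 RNAi Chro RNAi than in BEAF-32 RNAi by a log2 fold change of 0.40 (edgeR quasi-likelihood adjusted p = 0.0289), in 3 of 3 libraries against 3 of 3. Without BEAF-32 RNAi replicate 3 the log2 fold change was 0.29. The call was lost when any 1 Cp190 RNAi Chro RNAi library was left out, with library totals, with the replicate block and with both groups fitted alone (edgeR adjusted p of 0.0514 to 0.28). With 3 libraries in each group, single libraries far from the others were not flagged.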

How the results depend on the processing

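Of 164 counts and descriptive values under an alternative, 103 stayed close to the value given and 61 moved. Of 151 values of single Vha genes, 112 kept their call, 39 lost it and 0 reversed. The fall of Vha68-2 in BEAF-32 RNAi Dref RNAi cells stayed called in all 14 other fits. The fold threshold, which was applied to the counts below, is not among them, and Vha68-2 did not pass it. The rises of Vha36-3 in both double knockdowns were called in all 14 fits too. That gene reached the minimum count only through the knockdowns where it is high, so its p-values are descriptive in each fit. The cause of the moves below was not tested. The counts of called Vha genes below include restricted genes and show only how calls move between fits. The share of all genes called moves too and is not given for each fit, so these counts are no result about Vha genes. Between BEAF-32 RNAi Dref RNAi and BEAF-32 RNAi it was 5.74% with 12 libraries and 42.9% without BEAF-32 RNAi replicate 3.

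Vha genes called higher than WT numbered 2 for BEAF-32 RNAi cells, 2 for Cp190 RNAi Chro RNAi cells and 4 for BEAF-32 RNAi Dref RNAi cells, but 0, 6 and 7 when each knockdown was fitted with WT alone. Those called lower in the double knockdowns were then 6 and 11, against 0 and 2. With log2 fold changes of at least 1 required, 1 was higher in each double knockdown, 0 were lower in BEAF-32 RNAi Dref RNAi cells and 0 differed between Cp190 RNAi Chro RNAi cells and BEAF-32 RNAi. With library totals in place of TMM, 1 was lower in BEAF-32 RNAi Dref RNAi cells and 0 differed in that pair. Fitting a pair of knockdowns alone called 0 genes in that pair and 5 between the double knockdowns. DESeq2 called 2 between BEAF-32 RNAi Dref RNAi cells and BEAF-32 RNAi, and 1163 genes in all. DESeq2 without BEAF-32 RNAi replicate 3, chosen after seeing the data, called 4, 5 and 7 higher, 5 and 9 lower in the double knockdowns, 14 between BEAF-32 RNAi Dref RNAi cells and BEAF-32 RNAi cells, 9 when Cp190 RNAi Chro RNAi cells were set against BEAF-32 RNAi cells, and 4 between the double knockdowns. Leaving that replicate out of comparisons it does not belong to was also chosen after seeing the data.

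Leaving out 1 library at a time gave 1 to 3, 1 to 6 and 1 to 6 higher genes in the 3 knockdowns, 0 to 1, 0 to 6 and 1 to 10 lower ones, and 0 to 14, 0 to 8 and 0 to 6 in the 3 pairs as ordered above. The highest of these in comparisons of double knockdowns came without BEAF-32 RNAi replicate 3. Medians of broad genes were -0.136 to 0.04 in BEAF-32 RNAi cells, -0.051 to -0.023 in Cp190 RNAi Chro RNAi cells and -0.171 to -0.138 for BEAF-32 RNAi Dref RNAi cells.

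Replicate numbers did not pair the libraries: 18 correlations of deviations between same-numbered libraries ranged between -0.0316 and 0.0245, and the same number correlated best in 10 of 18 cases. The replicate block called 1 gene higher in BEAF-32 RNAi cells, 2 in Cp190 RNAi Chro RNAi cells and 3 in BEAF-32 RNAi Dref RNAi cells, 2 lower in the last, and 0 between any knockdowns.

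With lists of strong TADs, 5, 3 and 0 Vha gene starts were near a border, where the shares of all genes were 7.62%, 5.2% and 1.41%. Within 5 kb 13, 11 and 6 were (39.4%, 33.3% and 18.2%), against 32.2%, 26.3% and 13.9% of all genes. Requiring 2 CGATA left 8 promoters of 20. Depth limits the restricted genes, where 3 or fewer WT counts leave ratios with wide intervals.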
